A study of Homo sapiens with 8 samples.

Results

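The 7 sgRNAs against KEAP1 were followed one by one in a pooled CRISPR screen that sorted cells by their level of the PRMT5 protein. They are the rows of the deposited sgRNA table whose gene is KEAP1, 7 of 10429 sgRNAs in all, of which 9929 target 1420 genes and 500 have the gene name Control. KEAP1 had been picked by its own readout, the abundance of its sgRNAs in PRMT5hi against PRMT5lo cells, so this contrast is described here without a test, and nothing is supported with it.

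The cells were chemo-resistant COV362, an established human high-grade serous ovarian cancer line with the genotype given as WT, which carried Cas9 and an sgRNA library against druggable proteins. The groups compared were the cells with the highest PRMT5 staining (PRMT5hi, labelled PRMT5 high, n = 4 libraries of genomic DNA) and those with the lowest (PRMT5lo, labelled PRMT5 low, n = 4 libraries). Per the methods, the culture was split into 4 replicates only after transduction and selection, so libraries shared the original integrations of each sgRNA. Their spread covers the cultures made by this split and the later steps up to sequencing, and does not include that between transductions. The deposited values are pooled over the 4 libraries of a population, cells from before the sort were not analysed here, and whether a level reflects growth during the culture was not tested.

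KEAP1 brings substrates to a ubiquitin ligase built on cullin-3. It binds the transcription factor NRF2 and directs it to the proteasome, and oxidants or electrophiles that modify cysteines of KEAP1 let NRF2 accumulate and switch on genes of glutathione, thioredoxin and drug metabolism. PRMT5 is the main enzyme for symmetric dimethylation of arginine. In a sort of this kind, an sgRNA that is more abundant in PRMT5hi cells marks a gene whose disruption went along with more PRMT5 staining. The gene lies on the minus strand of chromosome 19 of GRCh38.p14, from 10486125 to 10503356, in the RefSeq annotation. Where in the gene each sgRNA cuts is not analysed here, so the sgRNAs are given by the names in the table, KEAP1_1 to KEAP1_7, in which the numbers have no stated order.

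Each sgRNA has a mean CPM in each population, that is, its reads scaled to the same total of reads mapped to sgRNAs in every library. The log2 ratio is log2 of CPM + 1 in PRMT5lo over CPM + 1 in PRMT5hi, so negative values mark sgRNAs that were more abundant in PRMT5hi cells. The columns of the table do not name the populations. They were assigned from the legend of the study and from the name of the table, which sets low against high, while the methods state the opposite sign, and every direction given here rests on this assignment. The standard error (SE) of a ratio was taken from the authors' variance of the sgRNA's share of reads over the 4 libraries of each population. It treats both populations as independent. Per the methods both were sorted from the same cultures, and spread shared by both sorts of a culture was not taken into account.

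All 7 KEAP1 sgRNAs were more abundant in PRMT5hi cells, as were 50.2% of all targeting sgRNAs and 48.2% of control sgRNAs. Summed over the 7, KEAP1 sgRNAs took up 906 CPM in PRMT5hi and 616 CPM in PRMT5lo, a 1.47-fold difference. The mean of the 7 log2 ratios was -0.62 with an SD of 0.27 over sgRNAs, and the median was also -0.62. They are described below in 3 groups, made after their values were seen, by the size of the ratio and by its SE.

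KEAP1_2 and KEAP1_3 had the lowest ratios. KEAP1_2 stood at 105 CPM in PRMT5hi and 52.4 CPM in PRMT5lo, so that 50.1% of its PRMT5hi abundance was left in PRMT5lo, with a log2 ratio of -0.98 (SE 0.28, n = 4 libraries per population). KEAP1_3 stood at 72.2 CPM in PRMT5hi and 38.9 CPM in PRMT5lo, with a log2 ratio of -0.87 (SE 0.36). KEAP1_3 was the least abundant of the 7, in both populations, and only 23.0% of targeting sgRNAs were less abundant than it in the mean log2(CPM + 1) of both populations. Both ratios lay more than 2 SE below 0, KEAP1_2 at 3.48 SE and KEAP1_3 at 2.43 SE.

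KEAP1_5 and KEAP1_7 had the smallest SE of the ratio. KEAP1_5 stood at 106 CPM in PRMT5hi and 62.8 CPM in PRMT5lo, with a log2 ratio of -0.75 (SE 0.077). KEAP1_7 stood at 146 CPM in PRMT5hi and 108 CPM in PRMT5lo, with a log2 ratio of -0.43 (SE 0.14). The ratio of KEAP1_5 was smaller than those of KEAP1_2 and KEAP1_3 but lay 9.77 SE below 0, and that of KEAP1_7 lay 3.08 SE below 0. In PRMT5lo the variance of both sat at the lower bound set by the authors' method, which is that of read counting alone. The read totals behind these values were 1186 for KEAP1_5 and 2033 for KEAP1_7 in PRMT5lo. Such a variance means that no spread between libraries beyond counting was estimated from 4 libraries, and 17.5% of targeting sgRNAs were at it in PRMT5lo, so the small SE of both sgRNAs rests partly on this limit.

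KEAP1_6, KEAP1_4 and KEAP1_1 had ratios that lay less than 2 SE below 0. KEAP1_6 stood at 145 CPM in PRMT5hi and 94.1 CPM in PRMT5lo, with a log2 ratio of -0.62 (SE 0.32). KEAP1_4 was the most abundant of the 7, at 198 CPM in PRMT5hi and 144 CPM in PRMT5lo, with a log2 ratio of -0.46 (SE 0.34). KEAP1_1 stood at 134 CPM in PRMT5hi and 117 CPM in PRMT5lo, with a log2 ratio of -0.20 (SE 0.25). For KEAP1_6 and KEAP1_4 the populations were far apart, but so were their libraries, for KEAP1_4 in both populations and for KEAP1_6 in PRMT5lo. For KEAP1_1, with 87.1% of its PRMT5hi abundance left in PRMT5lo, the populations themselves were close. In all, 4 of the 7 sgRNAs lay at least 2 SE toward PRMT5hi, beside 6.57% of all targeting sgRNAs and 7.40% of control sgRNAs. Toward PRMT5lo, 10.4% of control sgRNAs lay as far.

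The difference between PRMT5hi and PRMT5lo ran from 33.2 CPM for KEAP1_3 to 54.3 CPM for KEAP1_4 over 6 of the sgRNAs, and was 17.3 CPM for KEAP1_1. KEAP1_4, whose ratio was among the weaker ones, had the largest difference in CPM, and KEAP1_3, whose ratio was lower than those of all but KEAP1_2, the smallest apart from KEAP1_1. Across the 7 sgRNAs the log2 ratio and log2(CPM + 1) in PRMT5hi had a Pearson r of 0.67, with weaker ratios in more abundant sgRNAs, and across the 500 control sgRNAs r was -0.08. These correlations are descriptions over sgRNAs that share the same libraries, and PRMT5hi abundance enters both quantities.

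The order of the ratios, from KEAP1_2 through KEAP1_3, KEAP1_5, KEAP1_6, KEAP1_4 and KEAP1_7 to KEAP1_1, was largely unresolved. No neighbours in this order differed by as much as 1 SE of their difference, and the closest, KEAP1_4 and KEAP1_7, differed by 0.03 with an SE of 0.36. Of the 21 pairs of KEAP1 sgRNAs, 2 differed by at least 2 SE. Both involved KEAP1_1, which differed from KEAP1_5 by 0.55 (SE 0.26) and from KEAP1_2 by 0.78 (SE 0.37). Among single control sgRNAs, 7.40% lay at least 2 SE from 0 toward PRMT5hi and 10.4% toward PRMT5lo. Those are rates against 0, and differences between pairs of control sgRNAs were not computed. The 2 pairs were found among 21 that share sgRNAs, and they are not read as setting KEAP1_1 apart. The SD of 0.27 between the 7 ratios was close to the root mean square of their own SE, which was also 0.27. Of all genes, 56.1% had a smaller SD over their sgRNAs, and the median SD of a gene was 0.26.

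Against control sgRNAs of similar abundance, taken as the 100 nearest in mean log2(CPM + 1) over both populations, 6 of the 7 KEAP1 sgRNAs lay below the 5th percentile of the control log2 ratios. The same was true of 7.11% of all targeting sgRNAs. KEAP1_2 at -0.98 and KEAP1_6 at -0.62 lay below every one of their 100 controls, whose lowest ratios were -0.95 and -0.49. For KEAP1_3, KEAP1_4 and KEAP1_5 there was 1 control at or below the sgRNA, and for KEAP1_7 there were 2. KEAP1_1 was the exception, with 9 of 100 controls at or below its ratio of -0.20, where the 5th percentile stood at -0.23.

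The comparison with similar controls mattered most for the abundant sgRNAs. Controls around KEAP1_3, the least abundant, had an SD of 0.34 in their log2 ratios, those around KEAP1_2 of 0.31 and those around KEAP1_5 of 0.30. Controls around KEAP1_4, the most abundant, had an SD of 0.19, and those around KEAP1_1, KEAP1_6 and KEAP1_7 of 0.19 to 0.20. A ratio of -0.46, as for KEAP1_4, lay at the edge of its own controls, while 17 of all 500 control sgRNAs were at or below it. For KEAP1_7 the count was 21 of 500 and for KEAP1_1 76 of 500, whereas a single control sgRNA of the 500 was at or below KEAP1_2. The medians of the control ratios lay between -0.02 and 0.03 in all 7 sets, so the controls themselves were centred close to 0.

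When ratios were divided by their SE, the same 7 sgRNAs took another order. KEAP1_5 then lay below all of its 100 controls, whose lowest value was -5.57 SE. At or below KEAP1_2 and KEAP1_7 there were 2 controls each and at or below KEAP1_3 there were 3. KEAP1_6, which no control reached by its ratio, had 7 controls at or below it, KEAP1_4 had 9 and KEAP1_1 had 17, so by this measure 4 of the 7 lay below the 5th percentile, beside 5.29% of all targeting sgRNAs. The place of KEAP1_6 and KEAP1_4 thus depended on whether the spread between their own libraries was counted. With the SE taken from the similar controls in place of their own, 6 of the 7, all but KEAP1_1, lay at least 2 SE toward PRMT5hi, between 2.37 SE for KEAP1_7 and 4.02 SE for KEAP1_2. By the same measure 5.72% of all targeting sgRNAs lay as far.

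The spread between libraries, rather than the number of reads, set the precision of most KEAP1 sgRNAs. The median control sgRNA had a variance 18.3 times that of read counting in PRMT5hi and 17.1 times in PRMT5lo. For KEAP1_4 it was 93.3 times in PRMT5hi and 67.9 times in PRMT5lo, and 97 and 95 of its 100 similar controls had a smaller excess. Although KEAP1_4 had the most reads of the 7, about 3198 in PRMT5hi and 2745 in PRMT5lo, its share of reads was known only as well as 34.3 and 40.4 independent counts would give. Its coefficients of variation (CV, the square root of the variance over the share) were 17.1% and 15.7%, and 99 of its 100 controls had a smaller SE of the ratio.

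For KEAP1_6 the excess lay in PRMT5lo, where the variance was 75.9 times that of counting and the CV 20.5%, against 19.4 times and 9.09% in PRMT5hi. KEAP1_2 showed the opposite, with 48.0 times and a CV of 16.9% in PRMT5hi against 9.89 times and 9.94% in PRMT5lo. KEAP1_3 had CVs of 18.2% in PRMT5hi and 17.0% in PRMT5lo, and KEAP1_1 of 11.7% and 12.4%. KEAP1_7 had a CV of 9.50% in PRMT5hi and 2.22% in PRMT5lo. In PRMT5hi KEAP1_5 had the smallest excess of the 7, at 3.41 times the counting variance and a CV of 4.45%, and 3 of its 100 similar controls had a smaller SE. The libraries were pooled in the deposited values, so which library was high or low for an sgRNA cannot be read from them.

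These differences decide how much each sgRNA counts in a mean. With equal weights the mean log2 ratio was -0.62, and with each sgRNA left out in turn it ran from -0.69 without KEAP1_1 to -0.56 without KEAP1_2. With weights of 1 over the squared SE the mean was -0.66, but KEAP1_5 then held 61.7% of the weight, and without KEAP1_5 the same weighting gave -0.51. The ratio of the authors' estimated shares of reads, in which libraries are weighted, was -0.78 for KEAP1_5 and -0.46 for KEAP1_7, where the mean CPM gave -0.75 and -0.43.

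Abundance over both populations was not the contrast by which KEAP1 was picked, but it is not independent of it, as it includes the same PRMT5hi values. The 7 sgRNAs averaged 129 CPM in PRMT5hi and 88.1 CPM in PRMT5lo, where the median targeting sgRNA stood at 85.0 CPM and 84.9 CPM and the median control sgRNA at 123 CPM in both. By the gene mean of log2(CPM + 1), 76.9% of genes were less abundant than KEAP1. The single sgRNAs ranged widely, from KEAP1_3, above 23.0% of targeting sgRNAs, to KEAP1_4, above 91.0%. Both the least and the most abundant sgRNA had ratios below the 5th percentile of their controls.

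KEAP1 was picked by this contrast, so its place among other genes is a description only. Among the 1413 genes with 7 sgRNAs, KEAP1 ranked lower by its weaker sgRNAs than by its strongest. Of those genes, 34 had an sgRNA with a lower ratio than KEAP1_2, the lowest of KEAP1. When the ratios of each gene were sorted, no other gene had ratios as low as those of KEAP1 at places 4 to 7 from the lowest. At place 4 the ratio was -0.62 for KEAP1 and at lowest -0.55 among the other genes, at place 6 it was -0.43 against -0.22, and at place 7, that of KEAP1_1, -0.20 against -0.09. Every sgRNA was more abundant in PRMT5hi for 17 genes, 1.20% of the 1420. Below the 5th percentile of similar controls KEAP1 had 6 sgRNAs, LATS2, a Hippo pathway kinase, had 5 and GPNMB, a transmembrane glycoprotein, had 4, and no other gene had more than 3. LATS2 and GPNMB were named after their values were seen, and had mean log2 ratios of -0.17 and -0.33, against -0.62 for KEAP1.

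The genes with the sorted ratios nearest to those of KEAP1, by Euclidean distance over 7 sgRNAs among 1412 genes, were SLC6A6, HDAC3 and PLK1. SLC6A6, the taurine transporter, lay at a distance of 0.71 with ratios from -0.89 to -0.07, and all 7 of its sgRNAs were more abundant in PRMT5hi. HDAC3, a histone deacetylase, lay at 0.74 with ratios from -0.72 to 0.16 and 6 sgRNAs in this direction. PLK1, a mitotic kinase, lay at 0.74 with ratios from -1.03 to 0.12 and 5 sgRNAs in this direction, but its sgRNAs averaged only 18.9 CPM in PRMT5hi and 15.4 CPM in PRMT5lo. SLC6A6, the nearest of the 3, had a mean of -0.36 (SD 0.29 over sgRNAs), against -0.62 for KEAP1.

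Genes of the KEAP1 pathway were read from the same table by the limits in the figure legend of the study, which it states for sgRNAs. They are a p under 0.01 together with a log2 ratio above 0.25 or below -0.25. Here they were applied per gene, the level at which the methods set limits. They were set on the mean log2 ratio and on a one-sided p from the sgRNAs combined by Fisher's method. Over all 1420 genes these limits were passed by 0.845% toward PRMT5hi and 0.704% toward PRMT5lo. The methods state a p under 0.001 for PRMT5lo, which 0.141% of genes passed. Of 22 genes that NRF2 is known to activate, none passed toward PRMT5hi and 1 passed toward PRMT5lo. This was GSTM1, a glutathione S-transferase with close paralogs, which had 5 sgRNAs, 4 of them more abundant in PRMT5lo, and a mean of 0.28 (SD 0.31), and it also passed the limit of the methods. The lowest mean of the list was that of AKR1B1, an aldo-keto reductase, with -0.22 (SD 0.31). Of the 22 means 16 lay below 0, a larger share than the 731 of 1420 over all genes. The median of the 22 means was -0.04, against -0.0033 over all genes, and whether the list differs from all genes was not tested.

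Of 4 proteasome subunits and 4 other ubiquitin ligases, none passed in either direction. Among the proteasome subunits the means ran from -0.16 (SD 0.22) for PSMB1 to 0.16 (SD 0.21) for PSMB8, a subunit of the immunoproteasome, with a median of -0.10. In PRMT5hi the sgRNAs of PSMB1, PSMB2 and PSMB5 averaged 40.3, 47.6 and 56.6 CPM, and those of PSMB8 105 CPM. The median targeting sgRNA stood at 85.0 CPM. The SD over sgRNAs was 0.55 for PSMB2 and 0.45 for PSMB5, so nothing is read from these subunits not passing. Among the ligases they ran from -0.13 (SD 0.46) for MDM2, which targets p53, to 0.15 (SD 0.16) for BIRC3, an inhibitor of apoptosis, with a median of 0.03. RIOK1, an adaptor of PRMT5, had a mean of -0.15 (SD 0.33) and did not pass.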

How the data were processed

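Reads of each library were assigned by the authors to a FASTA of sgRNA sequences, and the sorted populations were compared with CB2. The submitters' processing notes also name FastQC and hg38, and no version is stated in these sources. Each deposited CPM value is the authors' mean over 4 libraries, each deposited fraction estimates the part of all reads that an sgRNA took up, and it comes with the authors' variance over the libraries. Columns with the authors' own fold changes and p-values, and the deposited gene table, were not used. The binomial limit of the variances gave a depth of 16166859 reads in PRMT5hi and 19117396 in PRMT5lo, or 4041715 and 4779349 per library, and for sgRNAs at the limit all read totals came out whole within 1.9e-09 reads. PCR reads are not independent molecules, so depth sets counting error only.

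Log2 ratios, SE (delta method), ranks among control sgRNAs and gene calls were computed with Python 3.11.15, numpy 2.4.6, pandas 2.3.3 and scipy 1.17.1. The gene calls were tested on simulated data. Those data held no control sgRNAs, so the ranks among control sgRNAs were not tested in this way. Gene calls used CB2's statistic recomputed from fractions and variances. No test was made on KEAP1. Named genes are KEAP1, list members past the limits or with the lowest and highest mean per list, and the 3 genes nearest to KEAP1 in sorted ratios; others are marked. The members and lists were chosen with earlier results of these data known. Cutting at paralogs and sgRNA sequences were not analysed here.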

Additional observations from a re-analysis of the deposited data

How the results depend on the processing

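The log2 ratios of the 7 KEAP1 sgRNAs were recomputed with pseudocounts of 5 and 10, from the estimated fractions, and after centring on all or on similar controls. In these 35 values no sign changed and each stayed within 1 SE of the value reported, with a largest move of 0.13 for KEAP1_3. The mean ran from -0.69 to -0.51 over 15 alternatives, of which the weighted mean without KEAP1_5 was added after the data were examined. With 50, 200 or all control sgRNAs for comparison, 6 of 7 sgRNAs again lay below the 5th percentile, and 4 when ratios were divided by their SE. After centring on similar controls, 4 sgRNAs again lay at least 2 SE toward PRMT5hi. In the pathway lists 1 gene passed the limits with a pseudocount of 5, with centring with sgRNAs of at least 20 CPM and with a p under 0.001 toward PRMT5lo, the last of these added after the data were examined. No paired analysis was possible because the deposited columns are pooled over the libraries and carry no replicate number; for the same reason no library could be left out. Differences under about 2 SE of a single sgRNA are not resolved at this number of libraries. Larger ones are not resolved by that alone. Among control sgRNAs 7.40% lay at least 2 SE toward PRMT5hi and 10.4% toward PRMT5lo.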
